A study of Mus musculus with 84 samples.

Results

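The genes described here were 10 cell cycle genes of the G1 phase and the p53 pathway, chosen by name from the 18909 genes of the read count table: Trp53, Mdm2, Cdkn1a, Ccng1, Ccnd1, Ccnd2, Ccnd3, Cdkn1b, Cdkn2a and Cdkn2b. Each was followed through mouse fibroblast reprogramming with and without a constitutively active form of the signal transducer Smad3. Expression had been measured by STRT RNA-seq, which reads the 5′ end of transcripts, in 30 libraries of 10 groups with 3 biological replicates each. The 84 deposited wells were technical replicates, 3 for each biological replicate and 2 on day 10, and their reads were summed.

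The control series (Cont) and the Smad3CA series (+Sm3CA) were mouse embryonic fibroblasts (MEFs) of the TNG MKOS line, which carry doxycycline-inducible c-Myc, Klf4, Oct4 and Sox2 with an mOrange reporter at the Sp3 locus, the CAG-rtTA activator, and a Nanog-GFP allele that leaves 1 working copy of Nanog. They were infected with a retroviral pMXs vector for BFP in Cont or for Smad3CA in +Sm3CA, reprogrammed in ESC medium with LIF, 300 ng/ml doxycycline and vitamin C and sorted for mOrange at 4 times, days 3, 6, 8 and 10. The transgenic cells came from chimeric embryos and were reprogrammed in a mixture with wild-type MEFs. The MEF group was wild-type MEFs of strain 129 in medium with FGF2 and heparin, without LIF. The ESC group was 1 line, the TNG MKOS embryonic stem cells, in the same medium with LIF and without FGF2 and heparin. For MEFs and ESCs the labels name no doxycycline, no virus and no sort on mOrange. A difference between MEFs and the reprogramming cells therefore covers genotype, medium, infection and sorting as well as cell state. The ESCs were of the transgenic line from which the reprogramming cells were derived. A difference between ESCs and the reprogramming cells covers doxycycline, vitamin C, infection and sorting as well as cell state.

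D-type cyclins bind CDK4 and CDK6 in G1 and start the phosphorylation of the retinoblastoma protein, which releases E2F factors for entry into S phase. The INK4 proteins encoded by Cdkn2a and Cdkn2b block those kinases, and the Cip/Kip proteins p21 (Cdkn1a) and p27 (Cdkn1b) bind and inhibit CDK2 complexes. The transcription factor p53 (Trp53) activates Cdkn1a, Ccng1 and Mdm2, and the ubiquitin ligase Mdm2 in turn marks p53 for degradation, while p19Arf, the second product of Cdkn2a, blocks Mdm2. The p53 pathway and the Ink4/Arf locus are known as barriers to reprogramming of fibroblasts, and ESCs are known for a short G1 phase with little expression of D-type cyclins and of CDK inhibitors.

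In the GENCODE annotation of GRCm38, the build that the submitters name as mm10, the p53 genes lie apart from each other: Trp53 at chr11:69580359-69591873 on the plus strand, Mdm2 at chr10:117688875-117710758 on the minus strand, Cdkn1a at chr17:29090976-29100727 on the plus strand and Ccng1 at chr11:40748552-40755311 on the minus strand. The D-type cyclin genes are Ccnd1 at chr7:144929931-144939925 (minus), Ccnd2 at chr6:127125162-127152193 (minus) and Ccnd3 at chr17:47505051-47599691 (plus). Cdkn2a at chr4:89274471-89294653 and Cdkn2b at chr4:89306299-89311039 are neighbours on the minus strand, and Cdkn1b is at chr6:134920401-134925513 on the plus strand. Counts were per gene, so the p16Ink4a and p19Arf transcripts of Cdkn2a, which start at different first exons, could not be told apart. Annotated genes on the opposite strand overlap parts of Cdkn1a, Ccnd1, Ccnd2 and Ccnd3, and processed pseudogenes of Trp53 and Ccnd3 are annotated. How reads were assigned in such cases is not given in the sources used here.

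RefSeq promoter windows (GRCm38.p6) were at hand for 8 of the 10 genes, as 11 windows. The 250 bases before the start are shown for the 3 p53 target genes among the 10, because 2 of them are the genes that differed between +Sm3CA and Cont on day 10. Capitals mark matches to the p53 half-site (runs of 10 letters) and to CAGAC, the core of the SMAD-binding element, or its complement GTCTG (runs of 5 letters), searched on both strands.
Cdkn1a, chr17:29090729-29090978, plus strand: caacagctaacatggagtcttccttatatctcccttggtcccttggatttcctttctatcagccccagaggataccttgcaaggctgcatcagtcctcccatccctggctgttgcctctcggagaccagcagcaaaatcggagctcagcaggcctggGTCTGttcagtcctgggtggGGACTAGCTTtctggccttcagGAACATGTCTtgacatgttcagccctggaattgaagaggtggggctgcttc
Mdm2, chr10:117710759-117711008, minus strand: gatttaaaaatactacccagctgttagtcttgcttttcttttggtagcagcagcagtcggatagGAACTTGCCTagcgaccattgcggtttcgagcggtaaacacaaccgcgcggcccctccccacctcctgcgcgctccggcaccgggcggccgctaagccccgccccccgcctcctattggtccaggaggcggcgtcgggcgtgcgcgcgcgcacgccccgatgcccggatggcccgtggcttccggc
Ccng1, chr11:40755287-40755536, minus strand: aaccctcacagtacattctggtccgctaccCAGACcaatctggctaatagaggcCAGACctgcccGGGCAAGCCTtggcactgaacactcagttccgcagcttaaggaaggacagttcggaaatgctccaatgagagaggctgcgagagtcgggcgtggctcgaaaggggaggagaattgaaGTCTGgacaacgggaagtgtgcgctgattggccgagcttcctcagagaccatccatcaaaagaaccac
The first Cdkn1a window held 2 half-site matches and 1 CAGAC match, the Mdm2 window 1 and 0, and the Ccng1 window 1 and 3. The second Cdkn1a window, chr17:29093519-29093768, which is not shown, held 0 half-site matches and 1 CAGAC match. Of 32851 windows of this length, 7.13% held a half-site match and 42.2% a CAGAC match. These are matches of letters, not binding sites. The Mdm2 window lies before the first exon, whereas the promoter of Mdm2 that p53 is known to use lies in the first intron and was not in it.

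Library totals were between 1008596 and 2296059 reads, and no replicates held identical counts. Values below are normalised read counts (reads divided by a DESeq2 size factor over the 30 libraries), and they compare libraries for a gene, not genes with each other. Smad3, whose reads include those of the vector, was at 5.19 to 25.4 in the 12 Cont libraries, and at 89.0 to 184 on day 3, 47.2 to 90.8 on day 6, 48.4 to 82.1 on day 8 and 32.8 to 47.7 on day 10 in +Sm3CA, without overlap on any day. The 6 ESC markers summed to 8.89 to 11.9 in MEFs and 27946 to 53305 in ESCs, and the 6 fibroblast markers to 3695 to 5244 in MEFs and 2.74 to 9.03 in ESCs. ESC replicate 2 stood apart from the other ESC libraries. Nanog was at 299, 21.7 and 285 in ESC replicates 1 to 3, and the G1 kinase gene Cdk4 at 782, 166 and 898. The proliferation gene Pcna was also low in replicate 2, at 1423, 638 and 1351. The ESC marker Zfp42 was not low in it, at 2275, 3654 and 2506. The sum of the 6 ESC markers, of which Nanog is a small part, was 31274, 53305 and 27946. The remaining ESC markers are not given by replicate. Without ESC replicate 2 the direction of each called member is the same. Values without it are given beside part of the results in ESCs, mostly those against MEFs. MEFs, ESCs and day 3 shared plate rows, days 6 and 8 shared others, and day 10 sat in others again. A difference between such sets of rows, as of day 10 from day 3 or from ESCs, cannot be told apart from plate row. Cont and +Sm3CA of a day shared rows.

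Reads of markers of other cells were found in the sorted cells, and also in MEFs or ESCs. The 5 haematopoietic markers summed to 299 to 2537 in the reprogramming libraries and to 429.5 to 1826 in MEFs. All 5 had reads in every reprogramming group. The 5 neural and glial markers summed to 1843 to 7135 in the reprogramming libraries, 223 to 301 in MEFs and 1080 to 1663 in ESCs. Sox10 had no reads in 5 of the 8 reprogramming groups. The 5 endothelial markers did not pass 23.6 and the 4 skeletal muscle markers did not pass 36.3 in the reprogramming libraries. In bulk samples, fewer cells of a type and less RNA per cell cannot be told apart.

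**Figure D1:**
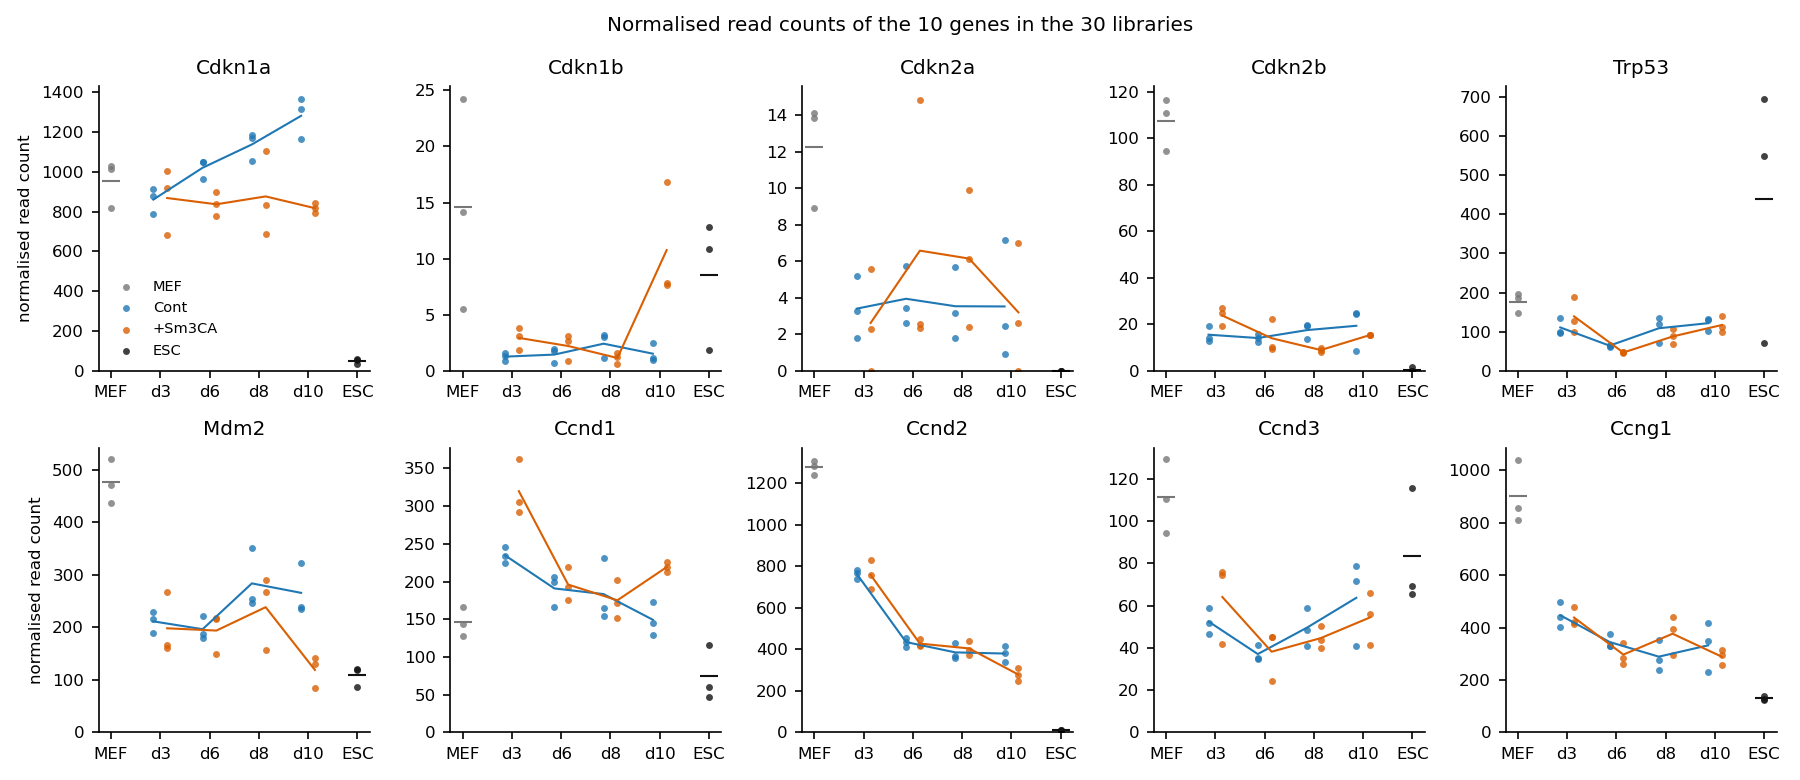
Normalised read counts of the 10 genes (vertical axes, linear from 0) in MEFs, Cont and +Sm3CA on days 3, 6, 8 and 10 (horizontal axis), and ESCs. Points are libraries and lines or bars are group means of 3. The Cdkn1a means of Cont and +Sm3CA are 861 and 868 on day 3 and 1281 and 817 on day 10, and Ccnd2 goes from 1276 in MEFs to 10.6 in ESCs.

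Whether Smad3CA changed these genes was asked by comparing +Sm3CA with Cont on each day. On day 10, Mdm2 and Cdkn1a were lower in +Sm3CA, and no gene of the 10 was called higher. Of the 10 genes, 8 had enough reads for the test, and 2 of the 8 passed, both lower, where 3.58% of all 10237 genes tested passed (edgeR, with p-values of its quasi-likelihood test adjusted over all genes by the Benjamini-Hochberg method and a threshold of 0.05). The median log2 fold change of the 8 was -0.28 beside -0.01 over all genes.

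Mdm2, the negative regulator of p53, was at 239.5, 323 and 236 in the Cont libraries of day 10 and at 142, 85.2 and 130.2 in +Sm3CA. All 3 +Sm3CA libraries lay below all 3 Cont libraries, and replicate 2 was the lowest of +Sm3CA and the highest of Cont. The change was -1.15 ± 0.23 on the log2 scale (SE, n = 3 per group), or 2.22-fold lower, with an edgeR adjusted p of 0.0016. It passed in all 13 alternative fits, with adjusted p up to 0.043, the highest being that without +Sm3CA replicate 2 (log2 fold change -0.93).

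Cdkn1a, which encodes the CDK inhibitor p21, was at 1165, 1314 and 1364 in Cont and at 816, 795 and 841 in +Sm3CA on day 10. The groups did not overlap, and the +Sm3CA libraries lay within a narrow range. The log2 fold change was -0.63 ± 0.17 (SE, n = 3 per group), or 1.55-fold lower, with an edgeR adjusted p of 0.023. This call was not stable: leaving out a single library ended it in 5 of 6 cases (all but that without Cont replicate 1), with log2 fold changes of -0.57 to -0.68 and adjusted p of 0.026 to 0.13 over the 6, and so did the fit with all 30 libraries (adjusted p = 0.10).

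Markers of other cells differed among the same day 10 libraries. The haematopoietic sum was 593, 2537 and 2376 in Cont replicates 1 to 3 and 911, 833 and 1527 in +Sm3CA, and the fibroblast sum was 493, 1358 and 1346 in Cont and 663, 674 and 484 in +Sm3CA. These sums overlapped between the series. Of the 6 fibroblast markers, 2 were called lower in +Sm3CA, and of the 4 haematopoietic markers tested, 0 were called. Of the 4 neural and glial markers tested, 1 was called higher in +Sm3CA and 0 lower. The part of other cells in the calls of Mdm2 and Cdkn1a was not tested.

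**Figure D2:**
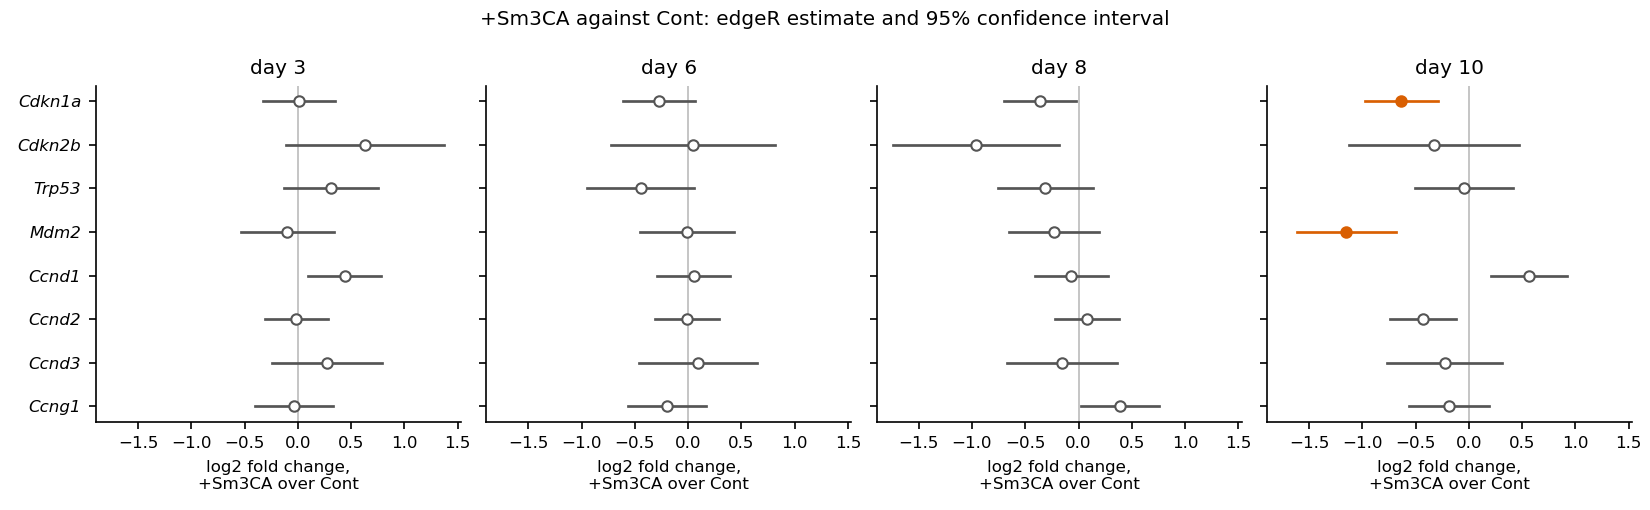
Log2 fold change of +Sm3CA over Cont (horizontal axis) for the 8 genes tested, by day, with bars for the 95% confidence interval of the edgeR fit. Filled points have an adjusted p under 0.05, which only Mdm2 (-1.15) and Cdkn1a (-0.63) on day 10 reach.

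The D-type cyclins had estimates of opposite sign on day 10, neither of them called by edgeR. Ccnd1, encoding cyclin D1, was at 146, 129 and 173 in Cont and 226, 219.6 and 212 in +Sm3CA, and Ccnd2, encoding cyclin D2, at 341, 416 and 384 in Cont and 309.8, 277 and 249 in +Sm3CA. Neither gene's groups overlapped, with +Sm3CA above Cont for Ccnd1 and below it for Ccnd2. Ccnd1 had a log2 fold change of 0.56 (95% interval 0.21 to 0.92, adjusted p = 0.067) and Ccnd2 of -0.43 (-0.74 to -0.12, adjusted p = 0.11). Both passed DESeq2's Wald test, with adjusted p of 0.035 and 0.021. For Ccnd3, encoding cyclin D3, the interval of the difference was -0.76 to 0.31.

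The other members tested on day 10 gave no call. The log2 fold change was -0.05 for Trp53 (95% interval -0.51 to 0.41), -0.18 for Ccng1 (-0.56 to 0.19) and -0.33 for Cdkn2b (-1.12 to 0.47). Ccng1, encoding cyclin G1, is a p53 target like Mdm2 and Cdkn1a, and its libraries overlapped between the series, at 231, 418 and 347 in Cont and 257, 312 and 297 in +Sm3CA.

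Cdkn1b and Cdkn2a had too few reads for this test. Cdkn1b had 2, 1 and 1 reads in the Cont libraries of day 10 and 12, 7 and 6 in +Sm3CA, or 2.47, 1.19 and 0.942 against 16.8, 7.65 and 7.81 as normalised counts. The groups did not overlap and +Sm3CA was higher, but the adjusted p was 0.15 without a filter on low counts and 0.066 with all 30 libraries in the fit. Cdkn2a had 2, 6 and 1 reads in Cont and 5, 0 and 2 in +Sm3CA, so that no difference was detectable at this depth.

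On the earlier days no member passed. On day 3, 0 of 8 were called by edgeR or by DESeq2's test, where 0.0195% of all genes were called. An unadjusted edgeR p under 0.05 was found for 1 of the 8 and for 523 of all 10237 genes tested. The log2 fold changes of the 8 were between -0.10 (Mdm2) and 0.63 (Cdkn2b). The gene with that p was Ccnd1, at 234, 224 and 245 in Cont and 292, 305 and 362 in +Sm3CA, without overlap (log2 fold change 0.44, adjusted p = 0.82). On day 6, 0 of 8 were called by either tool, and 0.00977% of all genes were called. None of the 8 had an unadjusted edgeR p under 0.05, which 426 of all 10237 genes had. The log2 fold changes were between -0.45 (Trp53) and 0.09 (Ccnd3). On day 8, 0 of 8 were called by either tool, where 1.04% of all genes were called. Of the 8, 3 had an unadjusted edgeR p under 0.05, as did 1559 of all 10237 genes. The 3 were Cdkn2b (log2 fold change -0.96, adjusted p = 0.20), Cdkn1a (-0.36, 0.28) and Ccng1 (0.39, 0.29), and the changes of the other 5 were between -0.31 (Trp53) and 0.08 (Ccnd2). Without +Sm3CA replicate 3, at 1106 for Cdkn1a against 688 and 836 in replicates 1 and 2, Cdkn1a passed on day 8 (-0.57, adjusted p = 0.042).

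Whether the difference between the series itself moved from day 3 to day 10 was tested as an interaction. It was called for 0 of the 8 genes by edgeR and by DESeq2's test, where 1.01% of all genes were called. Of the 8, 2 had an unadjusted edgeR p under 0.05, as did 1236 of all 10237 genes. The estimate was -1.05 for Mdm2 (95% interval -1.69 to -0.41, adjusted p = 0.10) and -0.64 for Cdkn1a (-1.12 to -0.16, adjusted p = 0.22), and the estimates of the other 6 were between -0.96 (Cdkn2b) and 0.13 (Ccnd1). Mdm2 passed only without a filter on low counts (adjusted p = 0.021).

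The other p53 target genes were followed as a list of 24, all of which were tested. On day 10, 1 of 24 was lower in +Sm3CA and 0 were higher, a share near the 3.58% of all genes called. The median log2 fold change was -0.24 beside -0.01 over all genes. The 1 gene called was Fas, which encodes a death receptor. Fas was at 116, 109.9 and 149 in Cont and 35.05, 41.5 and 43.0 in +Sm3CA on day 10. No libraries overlapped, and the log2 fold change was -1.63 ± 0.25 with an adjusted p of 4.0e-05, which passed in all 13 alternative fits. Fas was also the 1 list gene called on day 8 (-0.87 ± 0.22, adjusted p = 0.036), where 1.04% of all genes were called. Only 6 of 13 alternatives kept that call of Fas. On days 3 and 6, 0 of 24 were called, where 0.0195% and 0.00977% of all genes were called. Among the others on day 10, the log2 fold change was -0.30 for Bax and -0.33 for Bbc3, which promote apoptosis, -0.63 for Pmaip1, and 0.01 for Btg2, none with an adjusted p under 0.05.

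**Figure D3:**
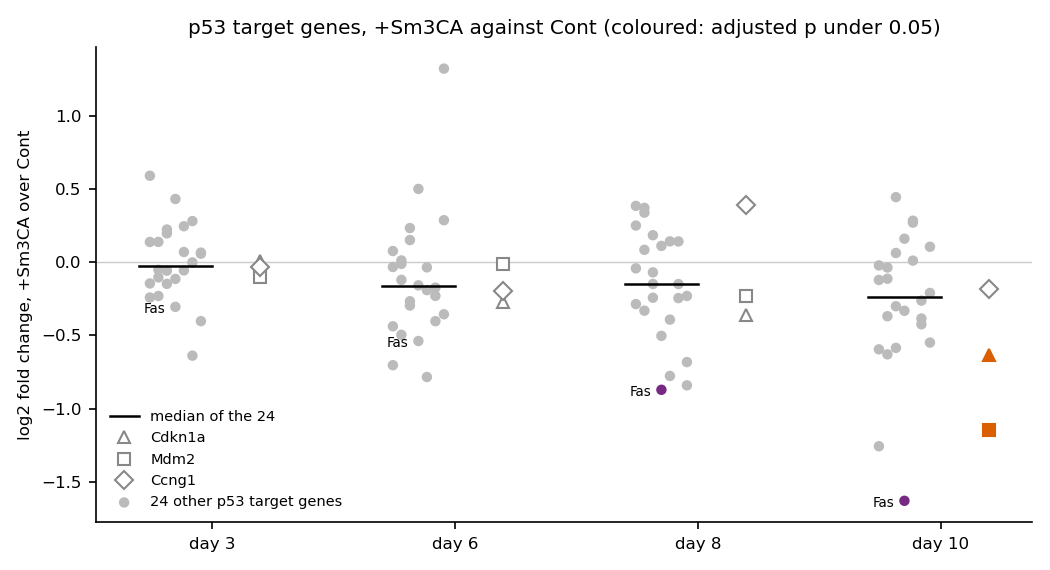
Log2 fold change of +Sm3CA over Cont (vertical axis), by day, for 24 p53 target genes (circles, line at their median) and for Cdkn1a, Mdm2 and Ccng1. Coloured symbols have an adjusted p under 0.05. On day 10 these are Fas (-1.63), Mdm2 (-1.15) and Cdkn1a (-0.63), while Ccng1 is at -0.18.

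The lists around the 10 genes showed few calls between the series. Among all 10237 genes, the called shares were 0.0195%, 0.00977%, 1.04% and 3.58%, in order of time from day 3 to day 10. Of the 10 p53 regulators and p53 family genes tested, 0 were called on any day, with a median of 0.47 on day 10. Of 13 G1 kinases and Rb-E2F partners tested, 0 were called on day 10 and 1 on day 8, the CDK subunit gene Cks1b, at 236 ± 32.7 in Cont and 385 ± 63.0 in +Sm3CA (SD, n = 3). Of 12 proliferation genes, 0 were called on day 10 and 2 on day 8, both higher in +Sm3CA, namely cyclin A2 (Ccna2, log2 fold change 1.14 ± 0.22) and the DNA clamp gene Pcna (0.83 ± 0.17, at 373 ± 30.8 and 656 ± 38.0). For the 11 tested regulators of the Cdkn2a locus, 0 were called on any day, and the same held for the 1 tested gene of the list of other CDK inhibitors.

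The balance of the D-type cyclins was taken as the log2 ratio of their reads within each library, which needs no scaling between libraries. The ratio of Ccnd1 to Ccnd2 was -1.22, -1.68 and -1.14 in Cont and -0.46, -0.34 and -0.23 in +Sm3CA on day 10. All +Sm3CA libraries were higher, by 1.01 on average. On day 3 the values were -1.66, -1.77 and -1.67 in Cont and -1.37, -1.18 and -1.19 in +Sm3CA, higher again in every +Sm3CA library, by 0.45 on average. On days 6 and 8 the groups overlapped. The exact permutation test gave p = 0.1 on days 3 and 10, the smallest that 3 against 3 libraries allow, and 0.28 after adjustment over the 14 ratio comparisons.

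In the same libraries the ratio of Ccnd1 to Ccnd3 overlapped between Cont and +Sm3CA on every day. The means were farthest apart on day 10, at 1.27 ± 0.56 in Cont and 2.02 ± 0.33 in +Sm3CA (SD, n = 3, exact permutation p = 0.2). Between MEFs and ESCs the Ccnd1 to Ccnd2 ratio moved from -3.13 ± 0.21 to 2.68 ± 0.74, and the Ccnd1 to Ccnd3 ratio from 0.39 ± 0.42 to -0.23 ± 0.25. The first pair of groups did not overlap (exact p = 0.1, the smallest possible), the second pair differed in mean by -0.62 (exact p = 0.2).

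**Figure D4:**
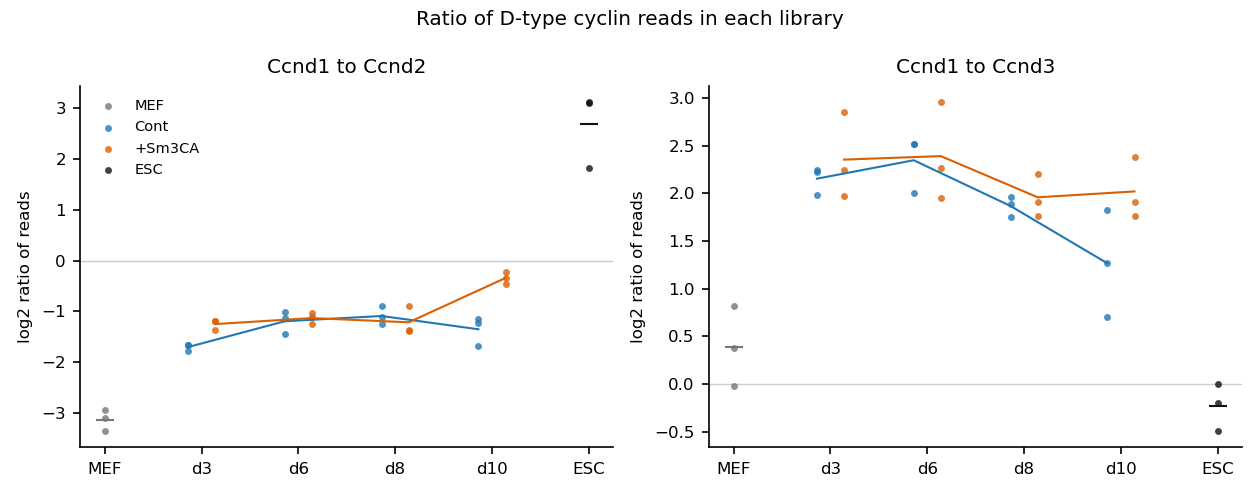
Log2 ratio of reads of Ccnd1 to Ccnd2 (left) and of Ccnd1 to Ccnd3 (right) in each library (vertical axes) over MEFs, days 3 to 10 and ESCs. Points are libraries and lines or bars are means of 3. On day 10 the Ccnd1 to Ccnd2 ratio has a mean of -1.35 in Cont and -0.34 in +Sm3CA.

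The step from MEFs to day 3 lowered most of the 10 genes in both series. All 10 could be tested with the 30 libraries in the fit. In Cont, 7 were called, 6 lower and 1 higher, where 43.4% of all 10979 genes were called. In +Sm3CA, 8 were called, 7 lower and 1 higher, where 43.1% of all genes were called. Both comparisons share the MEF libraries. The median of the 10 was -0.93 in Cont and -0.81 in +Sm3CA, beside 0.00 over all genes in both.

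CDK inhibitor genes had the largest changes of the 10 at this step. Cdkn2b, encoding p15Ink4b, was at 111, 94.4 and 117 in MEFs, at 14.3, 19.5 and 13.0 in Cont and at 26.9, 19.5 and 25.0 in +Sm3CA on day 3. Neither series overlapped with MEFs, and the log2 fold change was -2.69 ± 0.34 in Cont and -2.05 ± 0.32 in +Sm3CA (edgeR adjusted p = 1.9e-08 and 1.5e-06). Cdkn1b, encoding p27, was at 5.55, 14.1 and 24.2 in MEFs and between 0.891 and 3.84 in the 6 day 3 libraries. It was called lower in both series (-3.31 ± 0.78 and -2.16 ± 0.68), on 5 reads or fewer in each of those 6 libraries. Without MEF replicate 3, the highest, the +Sm3CA call ended (adjusted p = 0.11).

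Cdkn2a was at 8.89, 14.1 and 13.8 in MEFs and at 0 to 5.56 in the day 3 libraries, so all of them lay below MEFs. It passed in +Sm3CA (-2.05 ± 0.82, adjusted p = 0.041) and not in Cont (-1.76, adjusted p = 0.076), and the +Sm3CA call ended in 4 of the 6 fits that left out a library. The 2 tested genes of the list of other CDK inhibitors, Cdkn1c (p57) and Cdkn2d (p19Ink4d), were also called lower in both series. Cdkn1c went from 37.3 ± 5.67 in MEFs to 2.70 ± 1.23 in Cont and 5.31 ± 2.15 in +Sm3CA. Cdkn1a did not follow them, at 1014, 1027 and 820.2 in MEFs, 879, 914 and 788 in Cont and 682, 1004 and 920.2 in +Sm3CA. Its 95% interval of the difference from MEFs was -0.43 to 0.37 in Cont and -0.42 to 0.37 in +Sm3CA.

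Among the p53 genes, Mdm2 and Ccng1 were lower on day 3 than in MEFs. Mdm2 was at 437, 521 and 472 in MEFs, at 189, 217 and 229 in Cont and at 167, 267 and 161 in +Sm3CA, a log2 fold change of -1.05 ± 0.23 and -1.15 ± 0.23. Ccng1 was at 809.9, 854 and 1041 in MEFs, at 404, 439.7 and 497 in Cont and at 422, 478 and 414 in +Sm3CA, a change of -0.90 ± 0.20 and -0.93 ± 0.20. Trp53 was at 196, 186 and 148 in MEFs, 135, 97.3 and 100.0 in Cont and 99.8, 189 and 128 in +Sm3CA, and passed in neither series. Of the 24 other p53 targets, 8 were lower and 5 higher in Cont, and 7 lower and 5 higher in +Sm3CA. Of all genes, 43.4% were called in Cont and 43.1% in +Sm3CA. Pmaip1, encoding the apoptosis factor Noxa, had a log2 fold change of -3.02 ± 0.35 in Cont and -2.88 ± 0.35 in +Sm3CA, and Perp, encoding a membrane protein of cell contacts, of 2.12 ± 0.20 in both.

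The D-type cyclins split at the same step. Ccnd1 was the 1 member called higher, from 167, 144 and 128 in MEFs to the day 3 values given above, by 0.81 ± 0.21 in Cont (adjusted p = 0.0021) and 1.25 ± 0.21 in +Sm3CA (adjusted p = 7.1e-06). Ccnd2 was lower, from 1283, 1238 and 1308 in MEFs to 741, 769 and 780.3 in Cont and 757, 692 and 828 in +Sm3CA, by -0.62 ± 0.17 and -0.63 ± 0.17. Ccnd3 was lower too, from 94.4, 111 and 129.6 in MEFs to 58.8, 46.7 and 52.0 in Cont and 74.5, 41.7 and 76.2 in +Sm3CA. Its change was -0.96 ± 0.27 in Cont and -0.68 ± 0.26 in +Sm3CA, and the latter call ended without MEF replicate 3 (adjusted p = 0.13) or +Sm3CA replicate 2 (0.15).

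Of 12 proliferation genes, 4 were higher on day 3 than in MEFs and 0 lower in each series, a smaller share than the 43.4% and 43.1% of all genes called. The 4 included Mcm6, a part of the replicative helicase, at 44.8 ± 11.2 in MEFs, 99.9 ± 7.14 in Cont and 112 ± 22.0 in +Sm3CA. Of the 15 G1 kinases and partners, 2 were higher and 2 lower in Cont, and 3 higher and 2 lower in +Sm3CA. The E3 ligase subunit gene Skp2, which targets p27, was higher in both (0.90 ± 0.31 and 1.07 ± 0.31), and Cdk4 was lower in both (-0.84 ± 0.30 and -0.77 ± 0.30). Of 12 tested regulators of the Cdkn2a locus, 2 were higher and 2 lower in Cont and 2 higher and 4 lower in +Sm3CA, with Ets1, an activator of Cdkn2a, at 48.0 ± 16.1 in MEFs, 7.75 ± 6.38 in Cont and 9.12 ± 6.10 in +Sm3CA. Of the 11 p53 regulators tested, 2 were higher and 0 lower in Cont and 2 higher and 1 lower in +Sm3CA, and the damage kinase genes Atm and Chek2 were higher in both, Atm from 28.5 ± 11.3 in MEFs to 79.6 ± 17.3 in Cont and 57.4 ± 5.33 in +Sm3CA. The muscle sum was 554 to 852 in MEFs and 12.2 to 36.3 on day 3, and the haematopoietic sum 429.5 to 1826 in MEFs and 299 to 1073 on day 3. Their part in these changes was not tested.

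**Figure D5:**
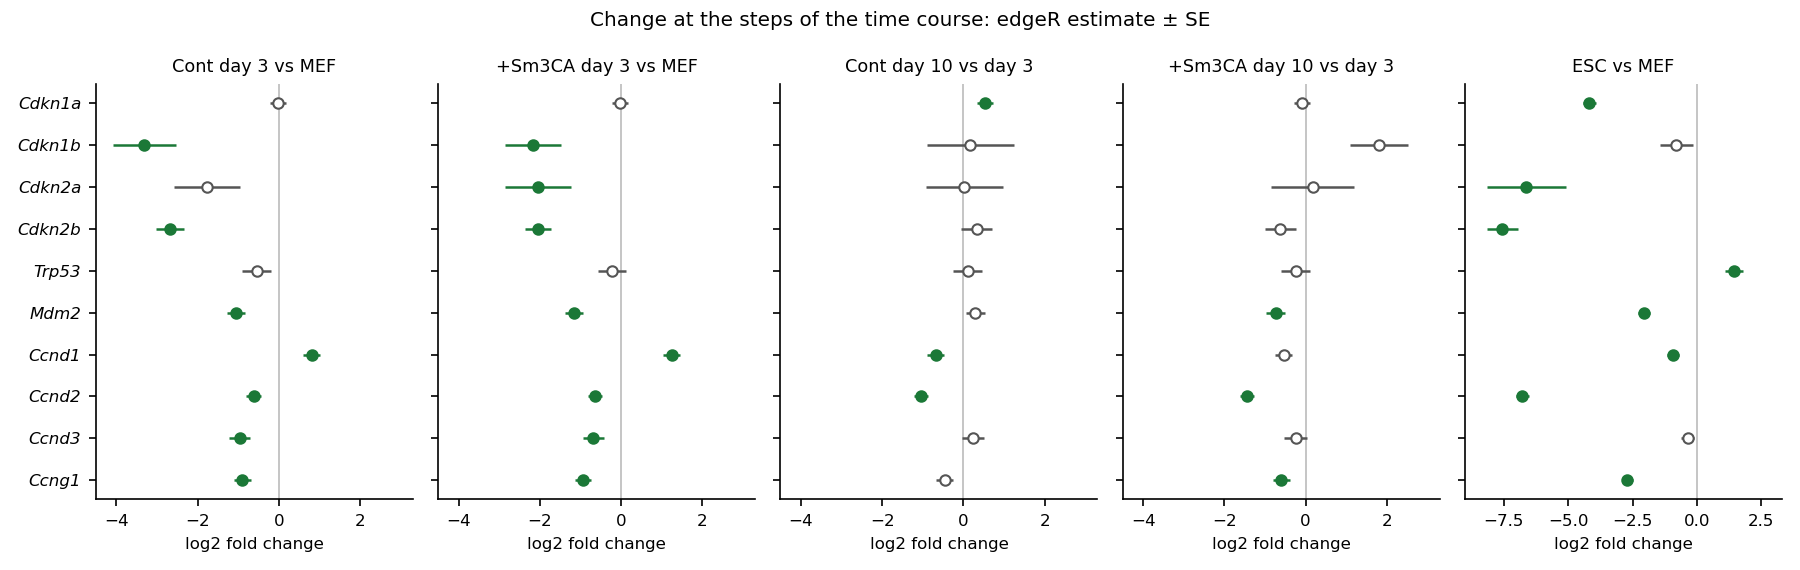
Log2 fold change of the 10 genes (horizontal axes, bars are ± SE of the edgeR fit) from MEFs to day 3, from day 3 to day 10, and between MEFs and ESCs. Filled points have an adjusted p under 0.05. Ccnd1 is at 0.81 and 1.25 at the first step and Trp53 at 1.44 in ESCs, and the estimates of Cdkn2a and Cdkn2b in ESCs rest on 0 and 1 reads there.

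From day 3 to day 10, Ccnd2 fell in both series. It was at 435, 414 and 457 in Cont on day 6, 359, 368 and 429.5 on day 8 and 341, 416 and 384 on day 10, and at 449, 419 and 416, then 399, 441 and 375, then 309.8, 277 and 249 in +Sm3CA. The largest gap lay between days 3 and 6 in both. The log2 fold change from day 3 to day 10 was -1.04 ± 0.18 in Cont (adjusted p = 2.7e-05) and -1.44 ± 0.18 in +Sm3CA (adjusted p = 6.7e-08). The test of the difference between these changes gave -0.42 (95% interval -0.84 to 0.01, adjusted p = 0.42). In all, 3 of 10 members were called in Cont, 1 higher and 2 lower, where 19.0% of all genes were called, and 3 in +Sm3CA, all lower, where 26.4% were called.

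Ccnd1 was lower on day 10 than on day 3 in Cont, by -0.68 ± 0.21 (adjusted p = 0.020). In +Sm3CA its change was -0.54 ± 0.21 (adjusted p = 0.051), which passed when replicates were paired over days by line, as the submitters describe them (adjusted p = 0.015). The Cont call ended in the fit of the first well alone (adjusted p = 0.14) and in 3 of the 6 fits that left out a library (without Cont day 3 replicates 1 or 3, or day 10 replicate 2). Between these days +Sm3CA was at 219.7, 175 and 193 on day 6 and 152, 171 and 203 on day 8, so day 10 (226, 219.6 and 212) was above day 8 in every library, a step that was not tested. Ccnd3 passed in neither series.

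Cdkn1a rose in Cont from day 3 to day 10, with day 6 at 1047, 963 and 1051 and day 8 at 1055, 1186 and 1171, by 0.54 ± 0.20 (adjusted p = 0.045). Every Cont line was higher on day 10 than on day 3, by 0.41, 0.52 and 0.79 on the log2 scale. Leaving out any 1 library ended the call (adjusted p of 0.063 to 0.15), and it held when replicates were paired by line (adjusted p = 0.011). In +Sm3CA the values were 836, 897 and 777 on day 6 and 688, 836 and 1106 on day 8, and the change to day 10 was -0.08 (95% interval -0.48 to 0.32).

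Mdm2 had changes of opposite sign in the series, a difference that did not pass the interaction test given above. In Cont it was at 181, 222 and 187 on day 6 and 247, 351 and 254 on day 8, and the change from day 3 to day 10 was 0.30 (95% interval -0.16 to 0.75, adjusted p = 0.40). In +Sm3CA it was at 217, 149 and 216 on day 6 and 268, 291 and 157 on day 8, and fell to day 10 by -0.74 ± 0.24 (adjusted p = 0.018). This call ended without day 3 replicate 2 (-0.45, adjusted p = 0.22) or day 10 replicate 2 (-0.53, adjusted p = 0.15). Ccng1 fell in +Sm3CA by -0.59 ± 0.20 (adjusted p = 0.026), a call kept in 7 of 13 alternatives, and its change in Cont was -0.46 (95% interval -0.87 to -0.06, adjusted p = 0.10).

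Trp53 had its lowest values of the time course on day 6, at 64.4, 62.2 and 66.8 in Cont and 44.5, 48.9 and 47.2 in +Sm3CA. All 6 values were below those of days 3, 8 and 10 in both series, a step that was not tested, and the 2 series did not overlap on day 6 (log2 fold change -0.45, adjusted p = 0.9996). Its change from day 3 to day 10 was 0.10 in Cont and -0.24 in +Sm3CA. Cdkn2b stayed between 8.03 and 26.9 in all reprogramming libraries, against 94.4 to 117 in MEFs. On day 8 the Cont libraries (19.2, 13.7 and 19.7) lay above those of +Sm3CA (8.03, 9.19 and 9.69). Cdkn1b had 1 to 5 reads in each library of days 3 to 8, and its increase to day 10 in +Sm3CA was 1.80 ± 0.71 (adjusted p = 0.056). Cdkn2a had between 0 and 16 reads in the reprogramming libraries, the most in +Sm3CA day 8 replicate 1.

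Of the 24 other p53 targets, 6 were higher and 2 lower on day 10 than on day 3 in Cont, and 2 were higher and 3 lower in +Sm3CA, where 19.0% and 26.4% of all genes were called. The share in +Sm3CA was below that of all genes. Trp53inp1, which encodes a cofactor of p53, was higher in both, from 30.6 ± 11.4 to 121 ± 33.4 in Cont and from 25.4 ± 10.2 to 111 ± 18.9 in +Sm3CA. Fas was higher in Cont (1.18 ± 0.26, from 54.2 ± 15.4 to 125 ± 21.0), while in +Sm3CA it was at 34.5, 52.9 and 44.9 on day 3 and at the day 10 values given above. Of 11 p53 regulators, 2 were higher in Cont and 5 in +Sm3CA, with 0 lower in either. In +Sm3CA they included Mdm4, an inhibitor of p53 related to Mdm2, from 23.96 ± 9.90 to 59.6 ± 14.9, and the deacetylase gene Sirt1, from 10.0 ± 4.81 to 37.5 ± 5.79. Of 15 G1 kinases and partners, 1 was higher and 2 lower in each series, with Ccne2 (cyclin E2) lower in Cont (-1.12 ± 0.25) and Cdk6 lower in +Sm3CA (-1.42 ± 0.44). Of 12 regulators of the Cdkn2a locus, 2 were higher and 0 lower in Cont, and 3 higher and 1 lower in +Sm3CA. Rnf2, a Polycomb subunit, was higher in both (1.14 ± 0.32 and 1.89 ± 0.31), and Bmi1, which represses Cdkn2a, was higher in +Sm3CA (1.31 ± 0.45). Cdkn2d was the 1 gene of the other CDK inhibitors called, higher in both series (1.34 ± 0.44 and 1.46 ± 0.42). Of 12 proliferation genes, 1 was higher in each series, Mcm2 in Cont and Ccna2 in +Sm3CA. The sum of ESC markers was 16.7 to 37.6 on day 3, 356 to 901 in Cont on day 10 and 927 to 2122 in +Sm3CA on day 10, without overlap between the latter 2 groups.

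ESCs differed from MEFs in 8 of 10 members, 7 lower and 1 higher, where 59.6% of all genes were called. Against Cont day 10, 9 were called, 7 lower and 2 higher, where 51.8% were called, and against +Sm3CA day 10, 7 were called, 6 lower and 1 higher, where 45.8% were called. The comparisons share the ESC libraries. The median of the 10 was -2.37, -1.32 and -1.41 in this order, beside 0.00, -0.15 and -0.15 over all genes. Proliferation genes were higher in ESCs in 11 of 12, 12 of 12 and 10 of 12 cases, with 0 lower. The ESC sums of the haematopoietic markers were 46.3 to 63.9, with Ptprc and Csf1r at 0 reads, and the fibroblast genes Col1a2 and Col3a1 also had 0 reads.

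Cdkn1a and Ccnd2 had the largest well-covered differences. Cdkn1a was at 58.5, 32.5 and 52.7 in ESCs, with a log2 fold change of -4.17 ± 0.24 against MEFs, -4.69 ± 0.24 against Cont and -4.07 ± 0.24 against +Sm3CA (adjusted p = 5.5e-19, 3.9e-20 and 3.9e-18). Ccnd2 was at 12.8, 12.6 and 6.43 in ESCs, with -6.78 ± 0.26, -5.12 ± 0.25 and -4.71 ± 0.25 (adjusted p = 1.3e-24, 8.5e-21 and 2.3e-19). For both genes every ESC library was far below every other library. Without ESC replicate 2 the change of Cdkn1a from MEFs was -3.97 and that of Ccnd2 was -6.85.

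The INK4 genes were at or near 0 in ESCs. Cdkn2b had 322 reads in the 3 MEF libraries and 1 read in the 3 ESC libraries, in ESC replicate 2, a ratio of 262 with an exact 95% counting interval of 46.7 to 10391. It was called lower also without that replicate. Cdkn2a had 37 reads in MEFs and 0 in ESCs, a ratio of 10.0 to a floor of 3 reads over the group. The exact 95% counting interval of MEFs over ESCs started at 7.77. Against day 10, where Cdkn2a had 9 reads in Cont and 7 in +Sm3CA, the ratios to that floor were 2.69 and 2.36. The exact intervals of day 10 over ESCs started at 1.77 in Cont and 1.46 in +Sm3CA. The call against Cont ended in 3 of 6 fits that left out a library and that against +Sm3CA in 5 of 6, among them the fit without ESC replicate 2 (adjusted p = 0.064). Such intervals cover counting error only, and the ratios to a floor take the reads of the other group as exact. The deposited counts are of reads, which are not independent molecules.

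Trp53 was the 1 gene higher in ESCs in all 3 comparisons, and its ESC libraries disagreed. It was at 547 and 694 in ESC replicates 1 and 3 and at 72.3 in replicate 2, which lay below all MEF and day 10 libraries. The log2 fold change was 1.44 ± 0.34 against MEFs, 1.88 ± 0.35 against Cont and 1.91 ± 0.36 against +Sm3CA, and 1.93, 2.41 and 2.42 without replicate 2. Ccnd1 was at 46.6, 116 and 60.4 in ESCs and lower in all comparisons (-0.95 ± 0.23, -1.07 ± 0.23 and -1.65 ± 0.23), and lower still without replicate 2 (-1.34, -1.43 and -2.03). Ccnd3 was at 65.8, 116 and 69.4 in ESCs and passed in no comparison, with or without replicate 2. For all 3 of these genes replicate 2 lay apart from the other ESC libraries.

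Among the p53 targets, Ccng1 was at 139.8, 126 and 123 in ESCs and lower in all comparisons (-2.70 ± 0.22, -1.34 ± 0.21 and -1.17 ± 0.21). Mdm2 was at 85.9, 119 and 121 in ESCs, below all MEF and Cont libraries (-2.05 ± 0.24 against MEFs and -1.30 ± 0.24 against Cont). It overlapped with +Sm3CA on day 10, and that difference was -0.17 with a 95% interval of -0.66 to 0.33. Without ESC replicate 2 the changes from MEFs were -2.66 for Ccng1 and -2.10 for Mdm2. Cdkn1b was at 1.83, 10.8 and 12.9 in ESCs, higher than in Cont on day 10 (2.34 ± 0.85, adjusted p = 0.020). This rested on 18 reads against 4, the call ended in 4 of 6 fits that left out a library (adjusted p = 0.052 without ESC replicate 2), and against +Sm3CA the interval was -1.78 to 0.91.

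The lists around the 10 were counted in ESCs against the 59.6% of all genes called between ESCs and MEFs. Of the 24 p53 targets, 4 were higher and 11 lower than in MEFs, a share near that of all genes, with Fas at 97.1 ± 17.1 in MEFs and 0.913 ± 1.58 in ESCs and Plk2, a stress-responsive kinase gene, at 365 ± 87.0 and 22.9 ± 10.6. Against day 10, 3 were higher and 11 lower than in Cont and 3 higher and 10 lower than in +Sm3CA. Without ESC replicate 2 these were 3 higher and 12 lower than in Cont and 3 higher and 11 lower than in +Sm3CA. Of 11 p53 regulators, 8 were higher and 1 lower than in MEFs. Among those higher, the checkpoint kinase gene Chek1 was at 22.0 ± 1.94 in MEFs and 182 ± 21.7 in ESCs. The checkpoint kinase gene Chek2 was at 11.9 ± 4.21 and 126 ± 79.5 (SD), a wide spread in ESCs, with a log2 fold change of 3.53 ± 0.41 (SE). Of 15 G1 kinases and partners, 7 were higher and 2 lower than in MEFs, again near that share. Ccne1, encoding cyclin E1, was at 44.7 ± 5.84 in MEFs and 126 ± 22.2 in ESCs, and at 16.7 ± 9.62 in Cont and 12.3 ± 5.00 in +Sm3CA on day 10. Of 12 regulators of the Cdkn2a locus, 5 were higher and 4 lower than in MEFs. The Polycomb genes Ezh2 (62.1 ± 13.2 and 287 ± 56.0) and Cbx7 (0.724 ± 1.25 and 91.9 ± 32.9) were higher, and the AP-1 gene Jun was lower (41.2 ± 10.8 and 3.33 ± 2.91). The 2 tested genes of the other CDK inhibitors were both lower than in MEFs. Without ESC replicate 2, the counts against MEFs were 3 higher and 13 lower for the p53 targets, 7 and 1 for the p53 regulators, 8 and 2 for the G1 kinases and partners, 5 and 4 for the Cdkn2a regulators, 0 and 2 for the other CDK inhibitors, and 12 and 0 for the proliferation genes. The share of all genes called in the fit without that replicate is not given, and the 59.6% is of the fit with all 30 libraries.

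Genes with the pattern most like each member were found by Pearson's r over the 10 group means (log2 of the normalised count plus 1), among 10979 genes, as a description. For Cdkn1a they were B2m (r = 0.996), Tmem43 (0.991) and Galnt2 (0.989), for Mdm2 C1qtnf3 (0.966), Ifngr2 (0.965) and Cpt1c (0.964), and for Ccng1 Oat (0.989), Ghr (0.987) and Lbh (0.986). For Ccnd2 they were Nxn (0.991), Pmp22 (0.990) and Esd (0.989), for Ccnd1 Suv39h1 (0.963), Stk19 (0.959) and Prep (0.954), and for Ccnd3 Cyb5r3 (0.976), Mob4 (0.974) and Gstm2 (0.970). For Cdkn2b they were Cyr61 (0.989), Rap1gds1 (0.988) and Dap (0.987), and for Trp53 Fau (0.982), Fbln1 (0.968) and Gfpt2 (0.964). For the genes of few reads they were Nfix (0.971), Zfp334 (0.966) and Igf1r (0.963) for Cdkn2a and Ndufb11 (0.952), Dpm1 (0.903) and Tpi1 (0.902) for Cdkn1b. The 10 points share libraries and size factors, and the ESC and MEF groups lie far from the others for most of these genes.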

How the data were processed

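STRT RNA-seq libraries of MEFs, ESCs and mOrange-sorted reprogramming cells were analysed from the raw read counts per gene and well that the authors deposited. Per the labels, Bowtie 0.12.9, DESeq2 1.6.3 and mm10 were used upstream, and wells of a biological replicate are technical replicates. Wells were summed to 30 libraries of 1008596 to 2296059 reads, which limits precision for genes of few reads. Groups came from the sample titles. +Sm3CA and Cont were compared by day with an edgeR quasi-likelihood fit of the 24 reprogramming libraries (edgeR 4.0.16, R 4.3.3, TMM scaling, filterByExpr, 10237 genes), and the other comparisons with all 30 libraries (10979 genes). Adjusted p-values are Benjamini-Hochberg over all genes tested. Normalised read counts used DESeq2 1.42.0 size factors. Ratios of cyclin reads used 0.5 added reads and two-sided exact permutation tests. The rule for named genes took all 10 members in every comparison, of which those without a call are given in part as ranges, with up to 4 called genes of largest change from each list, a subset of which is printed, and Smad3 as a check of the vector. The genes that are no list leaders but are printed (Bax, Bbc3, Pmaip1 and Btg2 on day 10) were chosen after their values were seen. The members and the gene lists were chosen with earlier results of these data known. The fits were tested on simulated data. Alternatives were DESeq2 size factors, DESeq2's Wald test, no filter, the first well only, other sets of libraries, replicate blocks and leaving out each library.

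Per the series' design text, a replicate number marks a line followed over days within a series. Deviations of same-numbered libraries from their group means correlated, averaged per pair of days, at -0.051 to 0.064 within a series and at -0.094 to 0.025 between Cont and +Sm3CA of a day.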

Additional observations from a re-analysis of the deposited data

Results flagged for a closer look

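Mdm2 is listed because all 3 Cont lines were higher on day 10 than on day 3 (mean log2 change 0.32, lines at 0.34, 0.57 and 0.04) and all 3 +Sm3CA lines were lower (mean -0.73, lines at -0.24, -1.64 and -0.30). The difference between the series was tested as an interaction and did not pass (-1.05, edgeR adjusted p = 0.10). Fas is listed because its interaction passed, at -1.33 ± 0.35 with an edgeR adjusted p of 0.0496, and 5 of 19 alternative fits kept that call, with adjusted p of 0.021 to 0.50.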

How the results depend on the processing

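The number of members called stayed within 1.5 times its value in 144 of 157 alternative fits. For +Sm3CA against Cont on day 10 it was 2, against 4 with DESeq2's Wald test, 1 with 30 libraries in the fit, and 1 to 2 when a library was left out. It was 0 on day 8, against 0 to 1 when a library was left out, and 0 for the interaction, against 1 without a filter on low counts. Leaving out a library gave 5 to 8 (8 with all libraries, 5 without MEF replicate 3) for +Sm3CA day 3 against MEFs, 1 to 2 (3, 1 without day 3 replicate 1 or 3) for Cont day 10 against day 3 and 1 to 3 (3, 1 without day 3 replicate 2) for +Sm3CA day 10 against day 3. The cause was not tested. A member's log2 fold change was followed for the 78 results past 1 SE of 0, and the other 32 were given no direction. Of 2724 alternative values for these, the pathway genes and the cyclin ratios, 1 was of opposite sign, Ccnd3 in ESCs against Cont day 10 with the first well only (-0.093 against 0.36), 212 of called values did not pass the test, and 11 newly passed. With the replicate block by number, Cdkn1a in Cont from day 3 to day 10 had an adjusted p of 0.057. With the block by line, Ccnd1 in +Sm3CA passed (0.015). The replicate blocks changed no other call of the 10 members. Depth limits Cdkn1b and Cdkn2a, with at most 28 and 16 reads in a library.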
